A study of Mus musculus with 6 samples.

Results

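ABC transporters (ATP-binding cassette proteins) were examined in RNA of whole mouse ovaries, as the genes whose symbol is Abc followed by a subfamily letter from a to g, a number and at most 1 further letter. The rule found 50 of the 46078 genes in the deposited tables, and the same 50 in all 6 libraries. Subfamily A held 16 of them, B and C 10 each, D 4, E 1, F 3 and G 6. All 50 are annotated as protein-coding.

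The ovaries came from C57BL/6 mice 8 to 9 weeks old, and the series asks how the alkylating chemotherapy drug cyclophosphamide affects the ovary. One group of 3 libraries was labelled CTX, with cyclophosphamide as its treatment, and the other group of 3 was labelled control. The sources used here give no dose, route, interval after the drug or oestrous stage, and do not say what control animals received. Nothing in the labels ties each library to its own animal, so every p-value below rests on the spread among libraries, which may be technical.

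ABC proteins use ATP to move substrates across membranes. A full transporter has a pair of membrane-spanning domains and a pair of ATP-binding domains, and smaller members with a single one of each pair up to work. Subfamily B holds P-glycoprotein, which pumps many drugs out of cells, and several mitochondrial transporters. Subfamily C holds the multidrug resistance proteins, which export conjugates with glutathione, glucuronide or sulfate, and the sulfonylurea receptors of potassium channels. Subfamily A and part of G export sterols and phospholipids, D serves peroxisomes and lysosomes, and E and F lack membrane domains and act on ribosomes. In the ovary, sterol exporters are of interest because granulosa, theca and luteal cells handle large amounts of cholesterol for steroid synthesis.

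The values are RPKM, reads scaled by gene length and library depth, so levels of different genes can be compared per length. The depth they were scaled to was about 17000000 to 22300000 reads in CTX libraries and 15900000 to 16800000 in control libraries. The libraries of a group were unlike each other in tissue content. Luteal markers (8 genes) summed to 9668, 3139 and 3010 RPKM in CTX 1, 2 and 3 and to 7551, 8150 and 4091 RPKM in controls 1, 2 and 3, while granulosa markers (7 genes) ran the other way, with 634, 2252 and 2173 RPKM in CTX and 1044, 925 and 2605 RPKM in control. Long genes read lower in CTX 1: across 14477 genes its deviation from the mean of all libraries had a Spearman correlation of -0.27 with exon length, against 0.01 to 0.15 in the other 5. Tested ABC genes are long, with a median of 6593 exonic bases against 3930 for all tested genes, and CTX 1 was the lowest library in 14 of 33 (42.4%), the same share as over all genes (42.4%).

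Of the 50 members, 33 reached the detection threshold of 1 RPKM in at least 3 of the 6 libraries and were tested. Their levels spanned from a mean of 1.16 RPKM for Abca4 to 44.8 RPKM for Abcb1b over all 6 libraries, and 11 members averaged at least 10 RPKM. Next to Abcb1b stood Abce1 (43.3 RPKM), Abcf2 (32.1), Abcf1 (31.0), Abca1 (30.8) and Abcf3 (18.6), so 4 of the 6 most abundant members were the ribosome-acting E and F genes. An estimated 59 to 12070 reads lay behind each value of a tested member, and 31 of the 33 had at least 100 in every library. The other 17 members stayed lower. Of these, 6 averaged between 0.1 and 1 RPKM (Abcg3, Abcb9, Abcc6, Abcb4, Abcc2 and Abcc8), and 11 averaged below 0.1 RPKM, with at most 24 estimated reads in a library (Abca12 to Abca17, Abcb5, Abcb11, Abcc12, Abcg5 and Abcg8). Only Abca14 was listed at 0 in all 6 libraries.

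**Figure D1:**
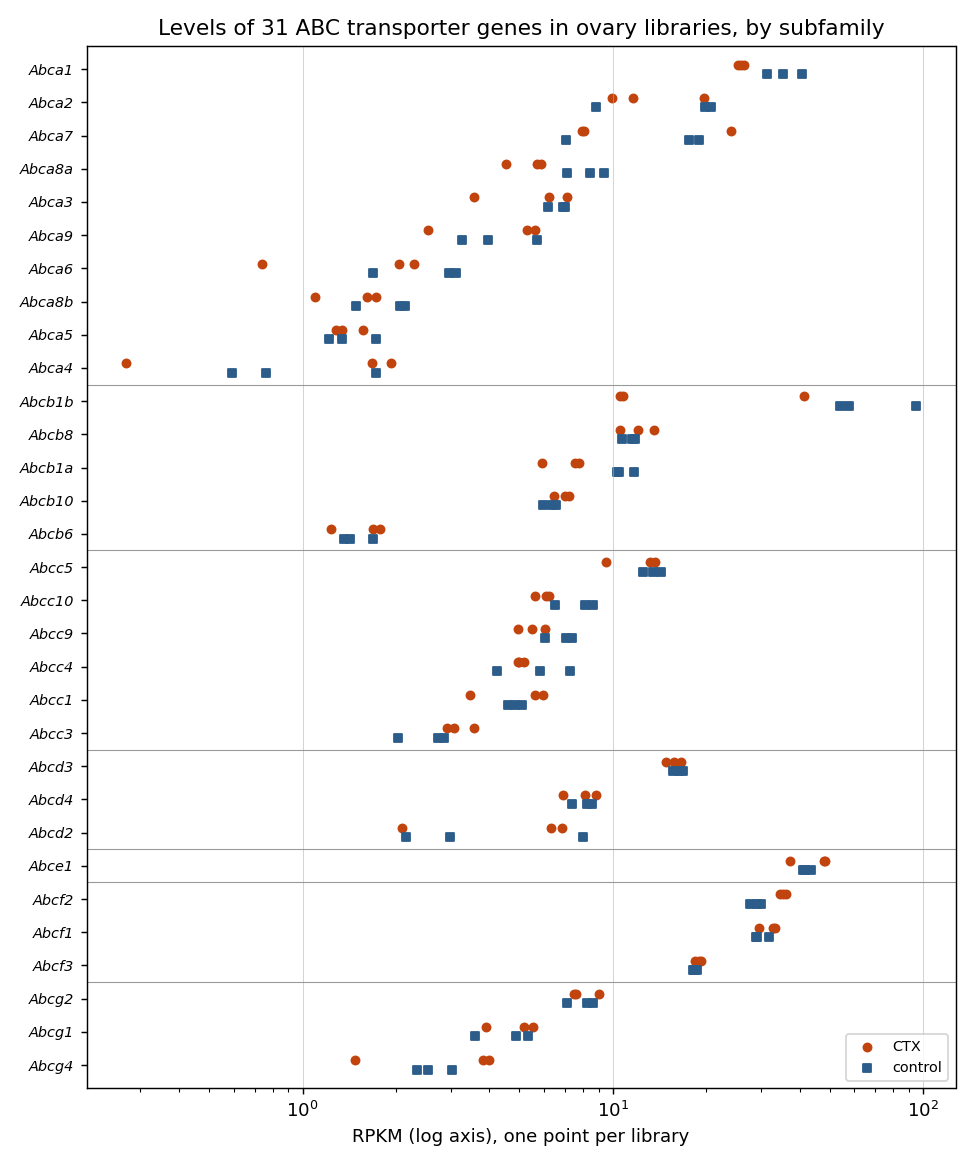
RPKM of 31 tested ABC genes on a log axis, 1 point per library, CTX as circles above control as squares, grouped by subfamily A to G from top to bottom. Abcb1b has the widest gap between the groups at high level, the E and F genes at 18 to 48 RPKM have narrow spreads, and Abca4 and Abca6 have a low CTX 1 value.

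CTX and control were compared with limma on log2(RPKM + 1) across 14535 genes. No member passed at a Benjamini-Hochberg adjusted p under 0.05, as no gene did in the whole table (0% called in either direction), and the smallest adjusted p of a member was 1.00. At an unadjusted limma p under 0.05 there were 5 members of 33, 4 lower in CTX (Abcb1a, Abcb1b, Abca1 and Abca8a) and 1 higher (Abcf2), where 3.45% of all tested genes reached that level (2.29% lower and 1.16% higher). In 7 members the CTX and control libraries did not overlap: Abcb1a, Abcb1b, Abca1, Abca8a and Abcc10 were below control, and Abcf2 and Abcc3 above. The same held for 8.83% of all tested genes (5.5% lower and 3.32% higher in CTX), against 21.2% of tested members. The median log2 fold change, CTX minus control, was -0.02 over the members and -0.01 over all tested genes, with 15 members positive and 18 negative, where 51.2% of all tested genes were negative.

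**Figure D2:**
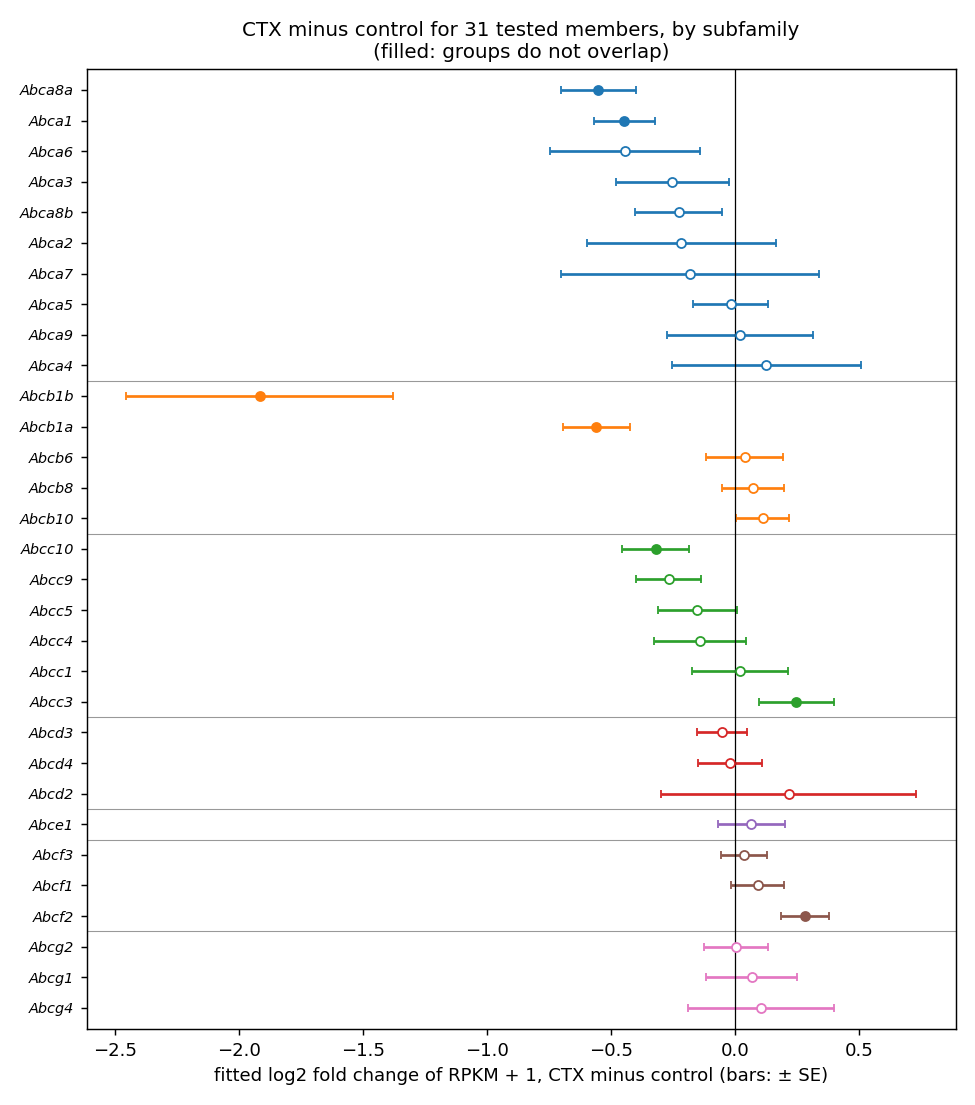
Fitted log2 fold change of RPKM + 1, CTX minus control, with its standard error, for 31 tested members by subfamily; filled points are members whose groups do not overlap. Abcb1b lies farthest from 0 at -1.92, Abcb1a, Abca8a and Abca1 lie between -0.56 and -0.45, Abcf2 lies highest at 0.28, and the 3 subfamily G genes lie between 0.00 and 0.11.

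Leaving out a library can only keep or raise the count of members with separate groups. Without CTX 1 the groups did not overlap in 12 members, without CTX 3 in 11 and without control 3 in 11, but the share over all genes grew too, to 39.8, 15.2 and 24.6%. With libraries weighted by their scatter (limma array weights) 17 of 33 members passed, beside 46.8% of all genes, with weights of 0.08 on CTX 1, 0.25 on control 3 and 6.36 on control 1.

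P-glycoprotein is encoded in the mouse by a pair of neighbouring genes on chromosome 5, Abcb1b (8798147 to 8866315) and Abcb1a (8660077 to 8748575), both on the plus strand in mm10 coordinates. Human cells have a single ABCB1 gene. Abcb1b had 41.2, 10.6 and 10.8 RPKM in CTX 1, 2 and 3, against 94.9, 57.6 and 54.01 RPKM in controls 1, 2 and 3. CTX 2 and 3 were far below every other library, and CTX 1 lay between them and the lowest control. Summed luteal markers were also far lower in CTX 2 and 3 (3139 and 3010 RPKM) than in CTX 1 (9668 RPKM). In controls 1, 2 and 3 these markers summed to 7551, 8150 and 4091 RPKM. The part of luteal content in the Abcb1b values was not tested. The CTX mean of 20.9 ± 17.6 RPKM was 69.7% below the control mean of 68.8 ± 22.6 RPKM (SD, n = 3 each, here and below). The fitted log2 fold change was -1.92 ± 0.54 (SE), with an unadjusted limma p of 0.0108 and an adjusted p of 1.00. Without CTX 1 it was -2.53 with a limma adjusted p of 0.0657, the lowest over the alternatives with equal weights, and with array weights it was -2.89 with an adjusted p of 0.00131.

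Abcb1a, at a lower level, had 5.91, 7.77 and 7.57 RPKM in CTX 1, 2 and 3 and 10.4, 10.5 and 11.7 RPKM in controls 1, 2 and 3. All CTX libraries lay below all controls, here with CTX 1 the lowest. The CTX mean of 7.08 ± 1.02 RPKM was 34.7% below the control mean of 10.9 ± 0.770 RPKM, a log2 fold change of -0.56 ± 0.14 (SE) with an unadjusted limma p of 0.00564. Abcb1b was 6.97, 1.36 and 1.43 times Abcb1a in CTX 1, 2 and 3, and 9.17, 5.50 and 4.60 times Abcb1a in controls 1, 2 and 3, so the 2 genes were nearest to equal level in CTX 2 and 3.

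Reads of these genes can be hard to tell apart. Their coding sequences have 3828 bases each and are identical at 88.1% of aligned bases, with a longest identical run of 338 bases. Of the 50-base stretches in annotated transcripts, 16.3% of those of Abcb1a and 11.1% of those of Abcb1b occur in the other gene, and the sources used here do not say how such reads were assigned. Abcb1a also shares 553 of its 5480 exonic bases with Gm42686 on the opposite strand, and Abcb1b 143 of 7990 with Gm5106. A stretch within the identical run is shown because reads from it match either gene, with the 15 bases that encode the ABC signature motif of the first ATP-binding domain in capitals (coding bases 1534 to 1653 in Abcb1b and 1525 to 1644 in Abcb1a, from the GENCODE M21 transcripts).
Abcb1b: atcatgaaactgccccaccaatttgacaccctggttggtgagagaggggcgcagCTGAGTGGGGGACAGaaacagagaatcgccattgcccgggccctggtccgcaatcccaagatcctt
Abcb1a: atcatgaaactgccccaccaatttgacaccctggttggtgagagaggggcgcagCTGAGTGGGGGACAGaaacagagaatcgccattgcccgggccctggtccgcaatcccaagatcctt
The 120-base window with the most differences, 38 bases, is shown because reads from it separate the genes, with differing bases in capitals (coding bases 2134 to 2253 in Abcb1b and 2128 to 2247 in Abcb1a).
Abcb1b: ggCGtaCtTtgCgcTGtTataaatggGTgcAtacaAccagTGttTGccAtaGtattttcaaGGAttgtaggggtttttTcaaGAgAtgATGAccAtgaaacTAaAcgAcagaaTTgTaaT
Abcb1a: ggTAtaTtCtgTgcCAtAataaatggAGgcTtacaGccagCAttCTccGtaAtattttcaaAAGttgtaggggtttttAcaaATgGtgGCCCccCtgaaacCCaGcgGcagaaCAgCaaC

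The third gene of this chromosome 5 group, Abcb4 (8893717 to 8959231), encodes the floppase that moves phosphatidylcholine into bile. It was near the limit of detection, with 0.22, 0.28 and 0.19 RPKM in CTX 1, 2 and 3 and 0.21, 0.11 and 0.17 RPKM in controls 1, 2 and 3. Its groups overlapped. Abcb9, a lysosomal peptide transporter, also stayed below the threshold, with 0.45 to 0.83 RPKM in CTX and 0.53 to 0.94 RPKM in control.

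**Figure D3:**
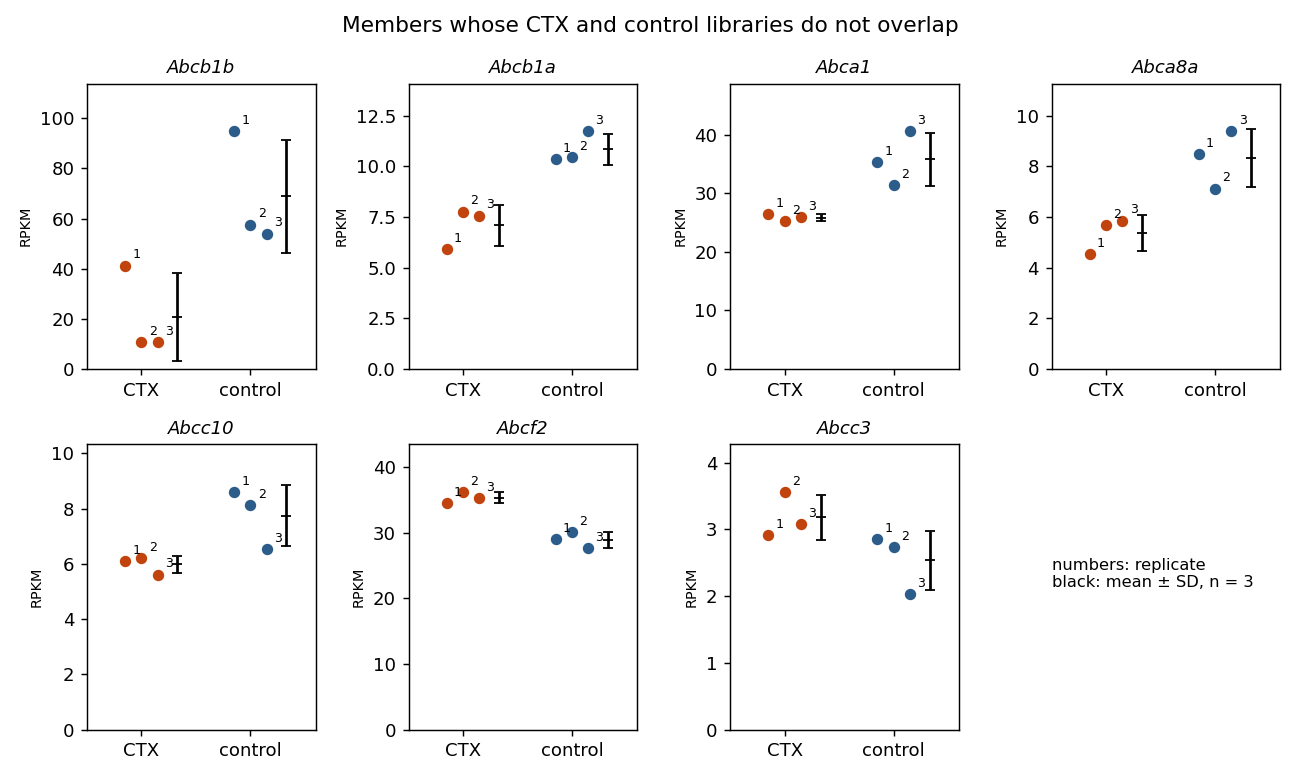
RPKM per library of the 7 members whose groups do not overlap, CTX left of control in each panel, with replicate numbers beside the points and mean ± SD (n = 3) in black; each axis starts at 0. Abcb1b shows CTX 2 and 3 near 11 RPKM and CTX 1 at 41.2 RPKM, whereas Abca1 and Abcf2 have CTX libraries within 2 RPKM of each other.

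Among the multidrug resistance proteins of subfamily C, no member reached an unadjusted p under 0.05. Abcc10 on chromosome 17 (46303221 to 46328352), a broad drug exporter also called MRP7, had 6.11, 6.21 and 5.61 RPKM in CTX 1, 2 and 3, against 8.60, 8.12 and 6.52 RPKM in controls 1, 2 and 3. The groups were separate, but control 3 lay only just above the CTX libraries, and the log2 fold change was -0.32 ± 0.13 (SE) with an unadjusted limma p of 0.0525. Abcc3, which exports glucuronide conjugates and bile salts, had 2.91, 3.56 and 3.08 RPKM in CTX and 2.85, 2.73 and 2.03 RPKM in control. It was the only C gene whose CTX libraries all lay above control, though CTX 1 and control 1 differed by less than the SD of either group (log2 fold change 0.25 ± 0.15, unadjusted limma p 0.152).

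Abcc5, an exporter of cyclic GMP and other organic anions and the most abundant C gene, had 9.49, 13.7 and 13.1 RPKM in CTX 1, 2 and 3 and 13.5, 12.5 and 14.3 RPKM in control. CTX 1 stood alone at the low end, and CTX 2 and 3 lay within the controls. Abcc1, the glutathione conjugate and leukotriene exporter MRP1, had 3.47, 5.97 and 5.62 RPKM in CTX and 4.82, 4.58 and 5.08 RPKM in control, with CTX 1 lowest and CTX 2 and 3 highest. Abcc4, which exports cyclic nucleotides and prostaglandins, kept to 4.96 to 5.18 RPKM in CTX within a control range of 4.22 to 7.28 RPKM. Abcc2, an exporter of conjugates into bile, and Abcc12 were below the threshold with at most 0.25 and 0.05 RPKM. Abcc6, whose loss in mouse and human leads to ectopic mineralization, had at most 0.35 RPKM.

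Abcg2, the breast cancer resistance protein, had 9.05, 7.60 and 7.51 RPKM in CTX 1, 2 and 3 and 7.13, 8.28 and 8.65 RPKM in controls 1, 2 and 3. The means of 8.05 ± 0.864 RPKM in CTX and 8.02 ± 0.793 RPKM in control differed by less than either SD (log2 fold change 0.00 ± 0.13, SE). Over the list of 11 exporters of drugs and conjugates (Abcb1a, Abcb1b, Abcb5, 7 C genes and Abcg2), 8 were tested, 3 positive and 5 negative, with 0 passing the adjusted test in either direction and a median log2 fold change of -0.15. Their summed RPKM was 83.4, 60.6 and 58.6 in CTX 1, 2 and 3 and 148, 112 and 107 in controls 1, 2 and 3, and Abcb1b made up most of that gap.

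Of 8 exporters of sterols and phospholipids 5 were tested, 2 positive and 3 negative, with a median log2 fold change of -0.18 and 0 passing. Abca1 on chromosome 4 (53030787 to 53159895), which loads cholesterol and phospholipid onto apolipoprotein A-I, had 26.4, 25.3 and 25.9 RPKM in CTX 1, 2 and 3 and 35.3, 31.5 and 40.6 RPKM in controls 1, 2 and 3. The CTX libraries lay close together and all below the controls. The CTX mean of 25.9 ± 0.565 RPKM was 27.8% below the control mean of 35.8 ± 4.60 RPKM, a log2 fold change of -0.45 ± 0.12 (SE) with an unadjusted limma p of 0.00997 and an adjusted p of 1.00. Abcg1, which passes cholesterol to high-density lipoprotein, had 5.52, 5.17 and 3.89 RPKM in CTX and 5.34, 4.87 and 3.6 RPKM in control. Its groups overlapped (log2 fold change 0.07 ± 0.18).

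Abca2, a lysosomal lipid transporter, had 19.7, 11.6 and 9.90 RPKM in CTX 1, 2 and 3 and 19.9, 20.8 and 8.85 RPKM in controls 1, 2 and 3. CTX 1 and controls 1 and 2 were high and the rest low, as for the summed luteal markers, whose part in these values was not tested. Abca7, a phospholipid transporter with a role in phagocytosis, had the same split into high and low libraries with 24.0, 8.10 and 7.97 RPKM in CTX and 17.6, 18.9 and 7.04 RPKM in control. Abcg4 ran higher in CTX 2 and 3 (4 and 3.82 RPKM) than in CTX 1 (1.47 RPKM) and the controls (2.34 to 3.04 RPKM). The obligate partners Abcg5 and Abcg8, which export plant sterols and cholesterol, had at most 0.05 and 0.03 RPKM.

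The 4 neighbouring A genes Abca8b, Abca8a, Abca9 and Abca6 lie in this order on chromosome 11, on the minus strand between 109932190 and 110251776, with Abca5 just beyond. Abca8a had 4.54, 5.69 and 5.86 RPKM in CTX 1, 2 and 3, against 8.47, 7.12 and 9.39 RPKM in controls 1, 2 and 3. All CTX libraries were below all controls, with a CTX mean of 5.36 ± 0.718 RPKM, 35.6% below the control mean of 8.33 ± 1.14 RPKM, and the log2 fold change was -0.55 ± 0.15 (SE, unadjusted limma p 0.00952, adjusted p 1.00). Abca6 had 0.74, 2.05 and 2.29 RPKM in CTX and 2.97, 1.69 and 3.12 RPKM in control, so control 2 lay among the CTX libraries. Abca9 overlapped (2.53 to 5.62 RPKM in CTX and 3.26 to 5.68 RPKM in control), and so did Abca5 (1.28 to 1.56 RPKM in CTX and 1.22 to 1.72 RPKM in control), while Abca8b had 1.10 to 1.72 RPKM in CTX and 1.49 to 2.14 RPKM in control. The coding sequences of Abca8b and Abca8a are identical at 74.8% of aligned bases, and 1.64% of the 50-base stretches of Abca8a occur in Abca8b.

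Over subfamily A, 10 of 16 genes were tested, 2 positive and 8 negative with a median log2 fold change of -0.22 and none passing the adjusted test. The remaining tested A genes were Abca3, the surfactant lipid transporter of lung lamellar bodies, with 3.58 to 7.11 RPKM in CTX and 6.17 to 6.99 RPKM in control, and Abca4, the retinoid flippase of photoreceptors. Abca4 had 0.27, 1.93 and 1.67 RPKM in CTX 1, 2 and 3 and 0.76, 0.59 and 1.73 RPKM in controls 1, 2 and 3. It was high in the libraries with the higher granulosa, oocyte and adipocyte marker sums, whose part was not tested. Abca3 shares 914 of its 9374 exonic bases with D330041H03Rik on the opposite strand, and without strand their reads cannot be told apart.

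The mitochondrial transporters of subfamily B showed no separation of the groups. Abcb8, an inner membrane transporter, had 13.6, 12.03 and 10.5 RPKM in CTX 1, 2 and 3 and 10.7, 11.8 and 11.5 RPKM in controls 1, 2 and 3. Abcb10, an inner membrane protein of heme metabolism, had 6.45 to 7.22 RPKM in CTX and 5.97 to 6.56 RPKM in control, and the porphyrin transporter Abcb6 had 1.23 to 1.78 RPKM in CTX and 1.36 to 1.68 RPKM in control. Abcb6 shares 2932 of its 5315 exonic bases with Gm29253 on the same strand, so its own level is uncertain, and Abcb10 shares 444 of 4306 with Gm45890 on the opposite strand. The fitted log2 fold changes of these 3 lay between 0.04 and 0.11. Without Abcb1b the summed RPKM of subfamily B was 36.2, 36.1 and 35.8 in CTX and 38.5, 38.7 and 38.5 in control. These sums still include Abcb1a, which is not mitochondrial and had 5.91 to 7.77 RPKM in CTX and 10.4 to 11.7 RPKM in control. Abcb1b alone supplied 53.2, 22.6 and 23.2% of the subfamily's sum in CTX 1, 2 and 3 and 71.2, 59.8 and 58.4% in controls 1, 2 and 3.

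**Figure D4:**
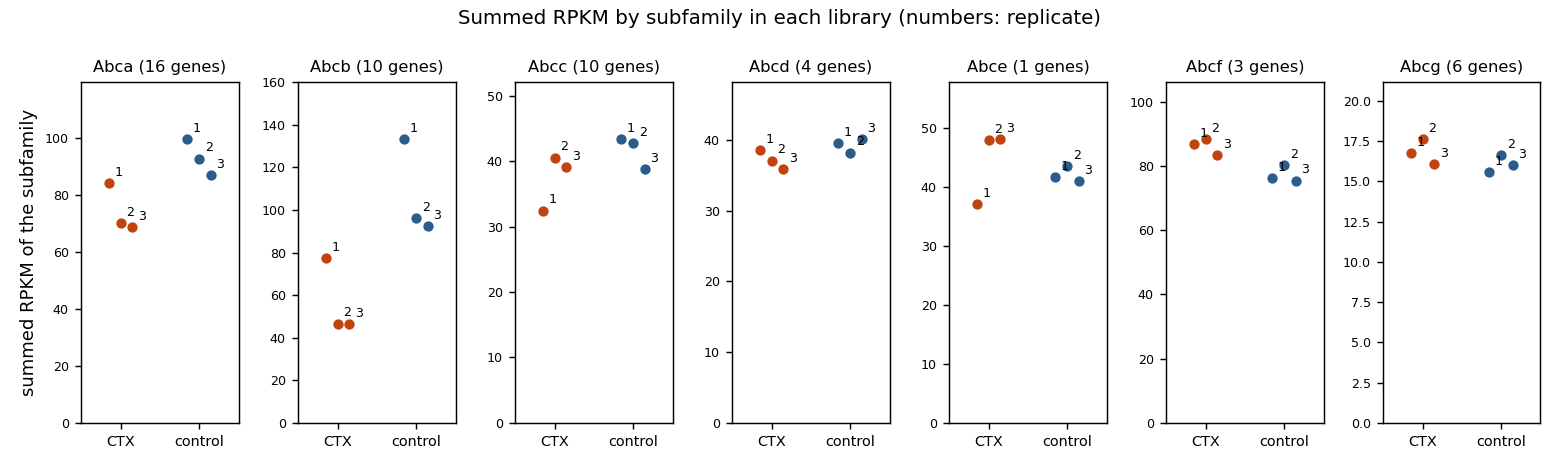
Summed RPKM of each subfamily in each library, CTX left of control, with replicate numbers beside the points and every axis starting at 0. The CTX sums lie below control in subfamilies A (68.7 to 84.3 against 87.0 to 99.6) and B (46.6 to 77.4 against 92.5 to 133). They lie above control in F (83.4 to 88.3 against 75.4 to 80.2) and overlap control in C, D, E and G. Single genes had separate groups in 2 of 10 tested in A (Abca1 and Abca8a) and 2 of 6 in B (Abcb1a and Abcb1b). In F it was 1 of 3 (Abcf2). The share over all tested genes was 5.5% lower and 3.32% higher in CTX. The sums include these genes, so a separate sum does not show a shift of the whole subfamily.

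Peroxisomal and lysosomal transporters form subfamily D. Abcd3, which brings bile acid intermediates and branched fatty acids into peroxisomes, had 16.6, 14.8 and 15.7 RPKM in CTX 1, 2 and 3 and 16.9, 16.4 and 15.6 RPKM in control. These are among the most even values of the family, with a log2 fold change of -0.05 ± 0.10. Abcd2, an importer of fatty acids into peroxisomes, was low in CTX 1 and controls 1 and 2 and high in the rest, with 2.09, 6.33 and 6.87 RPKM in CTX and 2.99, 2.15 and 8.04 RPKM in control. Adipocyte markers (6 genes) had the same split into low and high libraries. Their sums were 7.05, 173 and 161 RPKM in CTX and 8.38, 5.46 and 127 RPKM in control. Adipoq, Cidec and Lep were at 0 in at least 1 library. Granulosa marker sums had this split too, as did oocyte marker sums (79.9, 280 and 279 RPKM in CTX and 122, 105 and 253 RPKM in control). The parts of these cell types in the Abcd2 values cannot be told apart and were not tested. Abcd4, which with Lmbrd1 releases cobalamin from lysosomes, had 6.91 to 8.83 RPKM in CTX and 7.41 to 8.55 RPKM in control. None of the 4 genes of the subfamily passed, with 1 positive and 3 negative.

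The sulfonylurea receptors are regulatory subunits of ATP-sensitive potassium channels rather than transporters. Abcc9, the subunit of vascular smooth muscle and pericytes, had 4.95, 5.50 and 6.06 RPKM in CTX 1, 2 and 3 and 7.39, 7.05 and 6.04 RPKM in controls 1, 2 and 3. The groups met only at CTX 3 and control 3 (log2 fold change -0.27 ± 0.13, unadjusted limma p 0.0839). Its channel partner Kcnj8 had 4.38 to 6.02 RPKM in CTX and 5.61 to 6.51 RPKM in control. Abcc8, the pancreatic beta cell subunit, had at most 0.22 RPKM, and its partner Kcnj11 at most 0.05 RPKM. Of 7 pericyte and smooth muscle markers 1 (Pdgfrb) was below control in all CTX libraries and none above. The shares over all tested genes were 5.5% and 3.32%. Fitted log2 fold changes were negative for Pdgfrb, Cspg4, Rgs5 and Notch3 (-0.59 to -0.15) and positive for Acta2, Myh11 and Des (0.34 to 0.63). The summed level of the 7 was 465 to 595 RPKM in CTX and 362 to 504 RPKM in control. Acta2 was its largest part (342 to 453 RPKM in CTX and 227 to 371 RPKM in control).

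In each E and F gene the highest library was at most 1.31 times the lowest. Abcf2 on chromosome 5 (24565345 to 24577467) had 34.5, 36.2 and 35.3 RPKM in CTX 1, 2 and 3 and 29.1, 30.1 and 27.6 RPKM in controls 1, 2 and 3. All CTX libraries were above all controls. The means were 35.4 ± 0.865 RPKM in CTX and 28.9 ± 1.24 RPKM in control, a log2 fold change of 0.28 ± 0.10 (SE) with an unadjusted limma p of 0.0248 and an adjusted p of 1.00. Abcf1, which binds initiation factor eIF2 and ribosomes, had 33.4, 32.9 and 29.7 RPKM in CTX and 28.9, 31.9 and 29.1 RPKM in control, and Abcf3 had 18.4 to 19.2 and 18.2 to 18.7 RPKM. Abce1, which splits ribosomes after termination, had 37.1, 48.0 and 48.2 RPKM in CTX and 41.8, 43.6 and 41.0 RPKM in control, with CTX 1 below and CTX 2 and 3 above the controls.

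Partners and regulators of the transporters were read from lists. Among 14 genes of sterol efflux 5 were positive and 9 negative with 0 passing, and the most abundant were Apoe (431 to 588 RPKM in CTX and 558 to 665 RPKM in control), Scarb1 (60.8 to 290 and 32.6 to 220 RPKM) and Npc2 (57.0 to 234 and 63.0 to 155 RPKM). The LXR receptors that drive Abca1 and Abcg1 were Nr1h2, with 30.1 to 34.3 RPKM in CTX and 32.1 to 35.6 RPKM in control, and Nr1h3, with 2.12 to 4.41 and 3.6 to 5.37 RPKM. Both were picked after their values were seen, as were Nr1i2 and Nr1i3 below. Among 9 xenobiotic regulators 6 were tested and 0 passed. The most abundant was Nfe2l2, encoding the transcription factor NRF2 (46.3 to 52.4 RPKM in CTX and 45.5 to 59.2 RPKM in control). Next were its inhibitor Keap1 (15.4 to 15.6 and 14.4 to 16.7 RPKM) and Arnt (9.93 to 16.1 and 12.9 to 16.5 RPKM). The drug-sensing receptors Nr1i2 and Nr1i3 had at most 0.21 and 0.19 RPKM.

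In the lists tied to single organelles none of the tested genes passed either. Groups were separate in 2 of 14 heme and iron-sulfur genes and 2 of 7 ribosome recycling genes. They were separate in 1 of 8 peroxisomal oxidation genes and 1 of 2 lysosomal cobalamin genes. The share over all tested genes was 8.83%, with 5.5% lower and 3.32% higher in CTX. Ribosome recycling had 5 of 7 genes positive with a median log2 fold change of 0.10, heme and iron-sulfur genes had 9 of 14 positive with a median of 0.07, peroxisomal oxidation had 5 of 8 positive with a median of 0.03, and the 2 lysosomal cobalamin genes were split. The groups did not overlap for Alas1, the first enzyme of heme synthesis (46.6 to 51.1 RPKM in CTX and 52.4 to 103 RPKM in control), Fech, its last (28.1 to 31.9 and 33.5 to 34.8 RPKM), and Lmbrd1 (10.2 to 10.6 and 11.7 to 12.9 RPKM), all below control. They were separate and above control for peroxisomal Hsd17b4 (44.9 to 51.4 RPKM in CTX and 41.6 to 42.7 RPKM in control), the ribosome rescue factor Pelo (11.8 to 16.1 and 9.03 to 11.6 RPKM) and initiation factor subunit Eif2s1 (33.9 to 36.3 and 28.8 to 32.5 RPKM). The genes named here from these lists were chosen for their separate groups, after their values were seen. The ABC family members whose symbols do not begin with Abc were Tap1 and Tap2, the peptide transporters of antigen presentation (6.27 to 7.29 and 10.9 to 17.5 RPKM in CTX, and 5.58 to 6.61 and 12.3 to 15.1 RPKM in control), and the chloride channel Cftr (at most 0.55 RPKM).

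Marker lists of other cell types differed in direction, and for single markers a share of 5.5% of all tested genes below control and 3.32% above in every CTX library is the background. All 6 markers of the ovarian surface epithelium were negative, and 5 were below control in all CTX libraries. Their summed level was 28.7 to 39.96 RPKM in CTX and 48.9 to 64.3 RPKM in control. Of 7 endothelial markers 6 were negative and 1 (Tek) was below control in all CTX libraries. Summed endothelial levels were 89.5 to 116 RPKM in CTX and 112 to 121 RPKM in control. Luteal markers separated the groups in 0 of 8 genes, though all 8 were negative. Granulosa markers, 4 positive and 3 negative, separated the groups in 1 of 7 (Inhbb, below control). Of 6 tested macrophage markers 4 were negative and Csf1r was below control in all CTX libraries. Summed macrophage levels were 275 to 398 RPKM in CTX and 278 to 434 RPKM in control. Other lists had most fold changes above 0. All 4 theca markers were positive and Insl3 was above control in all CTX libraries, with summed levels of 55.4 to 292 RPKM in CTX and 31.6 to 107 RPKM in control. All 4 tested erythroid markers were positive and Hbb-bt was above control in all CTX libraries. The untested marker Alas2 had a mean of 0.76 RPKM in CTX and 1.05 RPKM in control. Summed erythroid levels were 21.7 to 75.4 RPKM in CTX and 18.4 to 27.2 RPKM in control. Of 8 oocyte markers 7 were positive and 0 separated the groups, with summed levels of 79.9 to 280 RPKM in CTX and 105 to 253 RPKM in control. No marker of these 8 lists was at 0 in any library. Their part in the values of the 7 members with separate groups was not tested, and in whole-ovary RNA fewer cells of a type and less RNA per cell cannot be told apart.

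Sequence before the start of transcription was available for 38 of the 50 genes, with 45 starts in RefSeq on GRCm38.p6, the assembly called mm10. It is printed for Abcb1b and Abca1, the most abundant members with separate groups below control, whose RefSeq and GENCODE starts coincide, as the 250 bases before the start, read in the direction of the gene. Capitals mark matches, on either strand, to the GC box GGGCGG, the CCAAT box and the E-box CACGTG.
Abcb1b, chr5:8797897-8798146, plus strand: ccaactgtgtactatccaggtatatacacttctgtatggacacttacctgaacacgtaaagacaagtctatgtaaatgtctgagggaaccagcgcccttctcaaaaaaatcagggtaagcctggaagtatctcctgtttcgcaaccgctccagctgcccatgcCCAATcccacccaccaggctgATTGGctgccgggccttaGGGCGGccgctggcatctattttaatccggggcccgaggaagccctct
Abca1, chr4:53159896-53160145, minus strand: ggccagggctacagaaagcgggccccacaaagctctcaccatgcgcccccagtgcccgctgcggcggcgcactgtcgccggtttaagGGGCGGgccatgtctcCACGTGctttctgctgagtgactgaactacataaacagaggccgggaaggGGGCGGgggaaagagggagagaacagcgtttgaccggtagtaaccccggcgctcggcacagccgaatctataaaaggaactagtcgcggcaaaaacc
Abcb1b has 1 GC box and 2 CCAAT boxes, and Abca1 has 2 GC boxes and 1 E-box. In windows of the same length the GC box was present at 32.7% of 32851 RefSeq starts and at 44.4% of the 45 member starts, the CCAAT box at 33.8 and 28.9%, and the E-box at 6.02 and 11.1%. The SF-1 site CAAGGTCA, bound by a steroidogenic factor, was present at 1.33% of all starts and at starts of Abcc10 and Abcg2 among the members, and the sterol regulatory element TCACNCCAC at 1.05% and at Abca3. The cyclic AMP element TGACGTCA was present at 1.55% and at Abce1 and Abcg2, the antioxidant element core TGACNNNGC at 10.2% and 8.89%, and the LXR direct repeat (DR4) at 0.0152% and at no member start. No motif searched overlapped another in the printed windows. For Abcb1a the RefSeq start lies 92986 bases before the GENCODE start, and no window is shown.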

How the data were processed

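Each library came as a single list of genes with symbol, Ensembl identifier and a value rounded to 2 decimals, and no header names the unit. The deposited values are taken as RPKM, made by the authors with steps that name Bowtie 0.12.2 and mm10, per the submitters' processing notes. The unit was read from the values themselves: for genes of at most 1000 exonic bases, the product of low values and exon length came to a whole read, give or take 0.2, for 97.6 to 97.9% of values at 1 step per library, and this step gave the depth. Estimated reads use GENCODE M21 exon lengths (98.0% of identifiers matched), which need not be the authors' lengths. The read counter, annotation release, strand use and treatment of multiply matching reads are not stated in the labels.

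The 14535 genes that reached 1 RPKM in 3 or more of the 6 libraries entered limma 3.58.1 (R 4.3.3) on log2(RPKM + 1), with a mean-variance trend, CTX minus control, two-sided and Benjamini-Hochberg adjusted over all genes. Fold changes of low genes are understated on this scale. The fit was also run on simulated data, in which every gene had the same spread and libraries did not differ in tissue content. That run therefore cannot show how the fit behaves where they do. Members, lists and tests were chosen with earlier results of these data known. Values in every library are given for members at an unadjusted p under 0.05 or with separate groups, the 2 most abundant of each subfamily, those with a library at 3 RPKM or more and at least 4 times the lowest, and Abcb1a, Abcb1b, Abcc1, Abcg2, Abca1 and Abcg1. The values of 2 tested members are not reported here individually, though counts and sums include them. Others shown in every library were chosen after their values were seen. No library was a copy of another. The most alike pair was CTX 2 and 3, with a Pearson correlation of 0.995 on log2(RPKM + 1). CTX 1 correlated with them at 0.970 and 0.969, and with controls 1 and 2 at 0.985 and 0.988. Whether CTX 2 and 3 are independent samples is not stated in the labels, so an n of 3 may overstate the replication in CTX. The alternatives were trimmed-mean (TMM) and quantile scaling, other filters and pseudocounts, limma without trend or with array weights, a replicate block, each library left out and, chosen after seeing the data, a correction for exon length.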

Additional observations from a re-analysis of the deposited data

How the results depend on the processing

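The 16 alternatives were run on the 18 genes selected by rule, except that the higher filter left some untested. Of 284 fitted log2 fold changes, 263 kept their direction and stayed on their side of the adjusted threshold, 10 passed it, all with array weights, and 11 changed sign, in 5 genes. The sign changes were Abcc5 (0.001) and Abcg1 (-0.16) with array weights, Abcb8 (-0.009), Abcc5 (0.002), Abcg1 (-0.016) and Abcg2 (-0.073) without CTX 1, Abcc1 without CTX 2 (-0.098), CTX 3 (-0.061) or control 2 (-0.01), Abcg2 without control 1 (-0.068) and Abcg1 without control 3 (-0.069). With 1 library left out, Abcb8 ranged from -0.009 to 0.159, Abcc1 from -0.098 to 0.222, Abcc5 from -0.242 to 0.002, Abcg1 from -0.069 to 0.192 and Abcg2 from -0.073 to 0.056. Over all alternatives Abcb1b ranged from -2.89 to -1.60, Abcb1a from -0.62 to -0.40, Abca1 from -0.53 to -0.35, Abca8a from -0.65 to -0.45 and Abcf2 from 0.25 to 0.31.

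Array weights called 6809 genes and 17 members where the equal-weight fit called 0 of each, and the cause was not tested. Leaving out 1 library gave 7 to 12 members with separate groups, a count that can then only stay or rise. It gave 0 to 5 called genes (5 without CTX 1), 0 called members and a member median of -0.09 to -0.005. That median was -0.15 among the 22 members with a mean RPKM of at least 5, where fewer members are counted, and 0.029 after the correction for exon length, where the cause was not tested. With the replicate number as a block the fit called 0 genes and 0 members, and 4 members had an unadjusted p under 0.05, without Abcf2. Same-numbered libraries deviated together in pairs 1 and 3 (correlations 0.40 and 0.60) but not in pair 2 (-0.54). With 3 libraries per group these values cannot show whether the numbers pair the libraries, and the labels do not say. Depth limits the 11 members below 0.1 RPKM, whose values rest on a few reads and allow no comparison.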
